A study of Drosophila melanogaster with 24 samples.

Results

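Transcript levels were compared between embryos with activated Notch and control embryos, both frozen 7 h to 8 h after egg lay, on 3 arrays of each kind out of 24 arrays in the series. The Notch embryos were the offspring of homozygous arm-GAL4 females and homozygous UAS-NotchICD males, and the control embryos were the offspring of the same kind of females and w1118 males, so both groups carried the GAL4 driver and only the Notch embryos carried the transgene. GAL4, a transcription factor from yeast, activates transgenes that carry its UAS binding sites. It was expressed here from the armadillo promoter, which is active in most embryonic cells, and NotchICD is the free intracellular part of the Notch receptor. The labels place this window at mid stage 11 to stage 12, when neural precursors are dividing, muscles are being founded and the trachea and salivary glands are forming. Each collection pooled about 500 whole embryos, and the series' design text describes 3 independent experiments per cross. The other arrays used below held the same 2 crosses from 5 h 45 min to 6 h 45 min (the early window), and the late window of embryos with UAS-Ras1V12 alone (Ras embryos) and with UAS-Ras1V12 and UAS-NotchICD together (combined embryos). Ras1V12 is an activated form of Ras85D, the GTPase downstream of receptor tyrosine kinases (RTKs).

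Notch is a receptor cut at the membrane after it binds Delta or Serrate on a neighbouring cell. Its intracellular part enters the nucleus, joins the DNA-binding protein Su(H) and switches on genes such as those of the Enhancer of split complex, whose basic helix-loop-helix (bHLH) products repress transcription. In the fly ectoderm this lateral inhibition limits how many cells become neuroblasts or sense organ precursors, and in the mesoderm it limits how many become muscle founders. The level of the transgene was not analysed here.

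Levels are deposited log2 values, so 1 unit is a doubling, and a change is the Notch mean minus the control mean ± its standard error in the limma fit (n = 3 arrays per group). A gene was called, and is said to rise or fall, at a Benjamini-Hochberg adjusted p under 0.05 over the 5736 rows tested. In whole embryos, fewer cells of a type and less RNA per cell cannot be told apart.

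Among the 6 arrays, control replicate 3 stood apart. It lay 0.462 and 0.428 log2 units (root mean square over rows) from control replicates 1 and 2, which were 0.292 from each other. The 3 Notch arrays lay 0.277 to 0.358 apart, and every Notch array lay 0.532 to 0.621 from every control array. A set of 262 genes that rose by more than 1 log2 unit between the windows in Ras embryos, which share no array with this comparison, had median levels of 6.09, 6.25 and 6.25 in the Notch arrays, against 6.89, 7.06 and 6.63 in the control arrays. The 42 genes that fell by as much in Ras embryos had medians of 7.14, 6.93 and 6.64 in the Notch arrays, against 6.92, 6.48 and 6.23 in the control arrays, with overlapping ranges. Late-rising genes as a set were thus lower in every Notch array than in every control array of the same age, and the part of this in the falls below was not tested.

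Of the 5736 rows, 787 were called (13.7%), 357 of them higher in Notch embryos (6.22%) and 430 lower (7.5%). With the replicate number as a block, 1231 were called (21.5%), 591 higher (10.3%) and 640 lower (11.2%). Each count of list members below is to be read beside these shares. Array median centring gave 35.4% higher among the called rows, centring over the rows tested 54.0%, and the values as deposited 45.4%. The median change over all rows was 0.011. Among called rows with 1 gene symbol there were 309 rises and 377 falls, and the falls were the larger changes: 60 genes rose and 134 fell by more than 1 log2 unit, and 13 rose and 34 fell by more than 2. The Notch and control values did not overlap in 28.1% of all rows (14.9% with Notch above, 13.2% below), and in 755 of the 787 called rows, which is 13.2% of all rows.

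The 12 largest rises were taken from called genes whose Notch and control values did not overlap. They included 2 genes of the Enhancer of split complex, a midline glial gene, a Wnt ligand gene and several genes known only by number. CG14572 had 7.25, 7.05 and 7.24 in Notch embryos, against 2.85, 2.04 and 3.26 in controls (4.47 ± 0.31, adjusted p = 1.04e-09). CG13403 had 7.54, 7.39 and 7.35 in Notch embryos, against 3.27, 2.97 and 2.72 in controls (4.44 ± 0.14, adjusted p = 9.92e-15). These 2 genes were near the floor of the array in every control embryo collection and well above the filter level of 5 in every Notch collection. CG14567 had 8.08, 8.15 and 8.27 in Notch embryos, against 4.40, 4.46 and 4.33 in controls (3.77 ± 0.15, adjusted p = 3.20e-13). In the RefSeq gene table CG14567 and CG14572 lie on chromosome arm 3L with 1 gene between them. wrapper, an adhesion protein gene of the midline glia, had 8.69, 8.97 and 9.57 in Notch embryos, against 5.69, 5.81 and 5.80 in controls (3.31 ± 0.19, adjusted p = 2.67e-11). CG7860 rose by 3.18 ± 0.25, Ect3 by 2.68 ± 0.12 and CG15480 by 2.65 ± 0.19. These 3 genes were also above every control value in every Notch array, which the rule of choice required. Jhbp1, of the juvenile hormone-binding protein family, had 5.76, 6.34 and 7.27 in Notch embryos, against 4.11, 4.82 and 3.98 in controls (2.16 ± 0.37, adjusted p = 0.000279). Dgat2, of the diacylglycerol acyltransferase family, had 5.51, 5.44 and 6.42 in Notch embryos, against 3.82, 3.73 and 3.70 in controls (2.04 ± 0.20, adjusted p = 1.87e-07). The Notch arrays were more spread than the control arrays in Dgat2.

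The 12 largest falls, chosen by the same rule, were led by genes of nerve cell formation. nerfin-1, a zinc finger gene of newborn neurons, had 3.26, 3.89 and 4.57 in Notch embryos, against 9.37, 9.62 and 9.15 in controls (-5.47 ± 0.26, adjusted p = 2.57e-12). Its other probe set gave -2.34, a smaller fall in the same direction. tap, a bHLH gene of the neurogenin family, had 3.29, 3.70 and 3.70 in Notch embryos, against 8.04, 8.25 and 8.02 in controls (-4.54 ± 0.29, adjusted p = 1.82e-10). Oli, another neural bHLH gene, had 4.0, 4.14 and 3.89 in Notch embryos, against 7.73, 8.51 and 8.42 in controls (-4.21 ± 0.19, adjusted p = 9.99e-13). All 3 were strong in every control collection and near the floor in every Notch collection, and values near the floor understate such falls. insb had 5.07, 5.12 and 4.85 in Notch embryos, against 8.55, 8.55 and 8.54 in controls (-3.53 ± 0.15). wor, a Snail-family gene of neuroblasts, had 4.09, 4.49 and 4.38 in Notch embryos, against 7.69, 7.79 and 7.78 in controls (-3.43 ± 0.15). insc, which orients the spindle of dividing neuroblasts, had 3.33, 3.47 and 3.30 in Notch embryos, against 6.37, 6.43 and 6.99 in controls (-3.23 ± 0.14). These 3 genes varied by less than 1 log2 unit within either group, and their adjusted p-values lay between 5.21e-13 and 6.60e-13.

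The remaining 6 of these falls had only numbers as names. CG13159 had 6.43, 6.03 and 5.33 in Notch embryos, against 10.81, 11.15 and 10.03 in controls (-4.73 ± 0.53, adjusted p = 1.36e-06). CG13920 had 3.19, 3.25 and 3.22 in Notch embryos, against 7.65, 7.62 and 8.21 in controls (-4.60 ± 0.25, adjusted p = 1.29e-11). CG13159 stayed well detected in Notch embryos, while CG13920 was at the floor there. CG14756 had 4.0, 4.15 and 3.59 in Notch embryos, against 8.97, 8.64 and 6.92 in controls (-4.26 ± 0.47), and CG14110 had 3.23, 3.00 and 2.51 in Notch embryos, against 7.27, 6.57 and 4.59 in controls (-3.23 ± 0.54, adjusted p = 0.00018). In both, control replicate 3 was the lowest control array, and without it the changes were -4.89 and -4.01. CG8353 fell by 3.40 ± 0.13 and CG7997 by 3.12 ± 0.22.

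**Figure D1:**
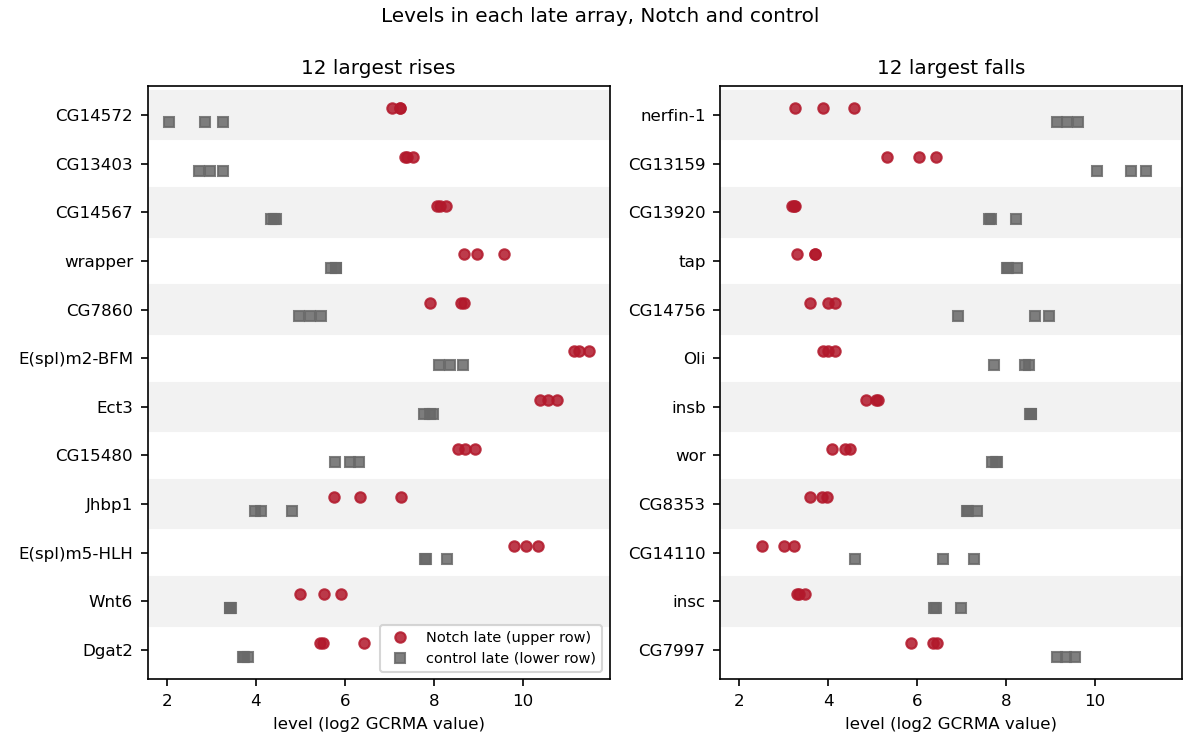
Level (deposited log2 GCRMA value, horizontal axis) of the 12 genes with the largest rise (left) and the 12 with the largest fall (right) in each late array; red circles are the 3 Notch arrays and grey squares the 3 control arrays. Only called genes whose Notch values lie on 1 side of all control values could be chosen. They include CG14572 (Notch 7.05 to 7.25, control 2.04 to 3.26) and nerfin-1 (Notch 3.26 to 4.57, control 9.15 to 9.62).

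Enhancer of split genes, the direct outputs of Notch, rose in 9 of 10 measured cases, with a median change of 1.78, and none fell. The bHLH repressor genes E(spl)m5-HLH (2.10 ± 0.26), E(spl)m7-HLH (1.79 ± 0.19), E(spl)m3-HLH (1.60 ± 0.17), E(spl)mbeta-HLH (1.49 ± 0.27) and E(spl)mdelta-HLH (1.33 ± 0.20) all rose. E(spl)m5-HLH had 10.34, 10.08 and 9.81 in Notch embryos, against 8.29, 7.80 and 7.82 in controls. E(spl)m7-HLH reached 12.20, 12.17 and 12.46 in Notch embryos, against 10.43, 10.46 and 10.59 in controls, among the highest levels of the complex in both groups. The Bearded family members of the complex encode small proteins that bind Neuralized, the ubiquitin ligase that activates Notch ligands. Of these, E(spl)m2-BFM had 11.26, 11.15 and 11.48 in Notch embryos, against 8.12, 8.36 and 8.65 in controls (2.92 ± 0.17, adjusted p = 3.11e-11). E(spl)m4-BFM rose by 1.91 ± 0.20 and E(spl)malpha-BFM by 1.78 ± 0.15. The Kazal-type protease inhibitor gene Kaz-m1 had 9.16, 9.19 and 9.19 in Notch embryos, against 7.32, 7.35 and 7.20 in controls (1.89 ± 0.13). The exception was E(spl)m6-BFM, with 5.90, 5.77 and 6.08 in Notch embryos, against 5.66, 5.80 and 6.10 in controls (0.06 ± 0.20, adjusted p = 0.892). Its groups overlapped, and it was the dimmest member of the complex.

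The 3 measured genes of the Bearded complex also rose. Ocho had 10.92, 11.07 and 11.12 in Notch embryos, against 9.95, 9.79 and 9.92 in controls (1.15 ± 0.23), and its other probe set gave 0.95. Tom had 12.93, 12.99 and 13.10 in Notch embryos, against 12.37, 12.31 and 12.39 in controls (0.65 ± 0.11). Brd had 11.71, 11.72 and 11.50 in Notch embryos, against 11.28, 10.94 and 10.79 in controls (0.64 ± 0.14). These genes started from some of the highest levels in the control embryos and changed less than most of the Enhancer of split genes. In the gene order of the RefSeq table, the called rises formed an unbroken run of 7 measured neighbours on 3R, from E(spl)mbeta-HLH to E(spl)m5-HLH, next to which E(spl)m6-BFM did not pass the test. The longest other run held Tom, Brd, Ocho, CG3349 (0.93 ± 0.25) and CG5114 (0.40) on 3L. CG3349 was chosen after its values were seen, and its call was lost without Notch replicate 2 (0.80, adjusted p = 0.066) and with 1 fit per window (adjusted p = 0.0714).

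**Figure D2:**
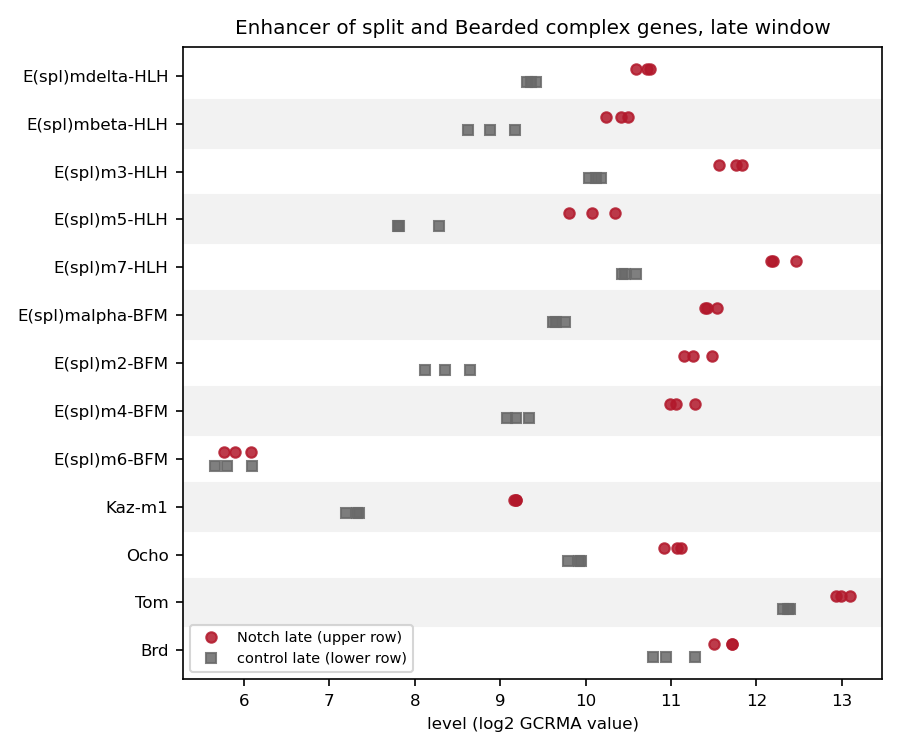
Level (deposited log2 GCRMA value, horizontal axis) of every measured Enhancer of split and Bearded complex gene in each late array; red circles are the 3 Notch arrays and grey squares the 3 control arrays. All genes but E(spl)m6-BFM have the Notch values above the control values, and the gap is widest in E(spl)m2-BFM.

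Of 15 measured pathway components, 2 rose and 1 fell (4 and 1 with the replicate block), and the median change was 0.16. Over all rows 13.7% were called, and 21.5% with the block, so these counts are not read as a result about the list. Delta, the main ligand gene, had 7.74, 7.40 and 7.62 in Notch embryos, against 7.13, 7.04 and 6.62 in controls (0.66 ± 0.14, adjusted p = 0.00179). dx, which encodes the ubiquitin ligase Deltex that acts on the receptor, rose by 0.47 ± 0.10. neur, the gene of the ligand-activating ubiquitin ligase and a marker of sense organ precursors, had 6.83, 6.93 and 6.86 in Notch embryos, against 7.50, 7.73 and 7.54 in controls (-0.72 ± 0.19). Its other probe set gave -1.47. The call of neur was lost without control replicate 2 (-0.65, adjusted p = 0.0671), and that of Delta in a fit on only the 6 arrays (adjusted p rounded to 0.05). Among 9 genes known to respond to Notch, a list that holds Delta again, 2 rose (Delta and Him) and 2 fell. Without Notch replicate 1, 3 rose and 4 fell, and with the replicate block 3 rose and 3 fell. Him, a repressor of muscle differentiation, had 8.40, 8.10 and 8.35 in Notch embryos, against 6.69, 6.50 and 6.99 in controls (1.55 ± 0.17). Hey, a bHLH repressor gene that Notch activates in newborn neurons, had 4.41, 3.81 and 4.35 in Notch embryos, against 5.46, 5.61 and 6.67 in controls (-1.73 ± 0.27, adjusted p = 7.65e-05). hry, a pair-rule bHLH repressor gene, fell by 0.74 ± 0.15. Both bHLH repressor genes of this list that passed the test, Hey and hry, were lower in every Notch array.

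Of 10 genes on the proneural and neural bHLH list 5 fell, among them the salivary gland gene sage, and 1 rose, with a median change of -0.24. Beside tap and Oli, ase, a bHLH gene of neural precursors, had 5.03, 5.04 and 4.82 in Notch embryos, against 5.98, 6.23 and 5.87 in controls (-1.06 ± 0.23). sage, a salivary gland bHLH gene that is counted again in the salivary gland list below, fell by 0.64 ± 0.11. ato, the proneural gene of chordotonal organs, had 4.88, 5.13 and 3.80 in Notch embryos, against 5.40, 5.40 and 5.26 in controls (-0.75 ± 0.23, adjusted p = 0.0309). Its call was lost in 8 of 16 alternative settings, among them without Notch replicate 3 (-0.34, adjusted p = 0.207) and without control replicate 1 or 2 (-0.72 each, adjusted p = 0.082 and 0.0908). emc, whose product blocks proneural proteins, rose, with 11.76, 11.61 and 11.47 in Notch embryos, against 11.12, 10.80 and 11.00 in controls (0.64 ± 0.15). The proneural genes ac (0.16 ± 0.13), sc (0.21 ± 0.19) and l(1)sc (0.19) did not pass the test in this window.

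Of 22 measured neuroblast genes, 10 fell and 5 rose, with a median change of -0.49 (13 and 5 with the replicate block). Beside nerfin-1, insb, wor and insc, the falls included Kr (-2.39 ± 0.20), 1 of the factors that neuroblasts express in sequence, and pros, whose homeodomain product is passed on to the daughter cell of a neuroblast, with 6.46, 6.47 and 6.15 in Notch embryos, against 8.10, 8.08 and 7.69 in controls (-1.59 ± 0.22). The 5 rises were of esg (1.20 ± 0.14), SoxN (1.08 ± 0.15), D (1.01 ± 0.14), sna (0.99 ± 0.17) and gsb (0.55 ± 0.15, a call lost without Notch replicate 1 or 3 and without control replicate 1 or 2, with changes of 0.50 to 0.55), genes that are also active in the ectoderm, the imaginal primordia or the mesoderm. SoxN had 10.03, 9.82 and 10.13 in Notch embryos, against 8.94, 8.92 and 8.87 in controls, and its other probe set gave 0.74. esg had 9.10, 8.66 and 9.27 in Notch embryos, against 7.83, 7.84 and 7.77 in controls. The Snail-family genes esg and sna were thus higher in every Notch array and wor lower.

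Of 11 neuronal differentiation genes 4 fell and 1 rose, with a median change of 0.00. fne and elav, whose RNA-binding products mark all neurons, fell by 2.32 ± 0.27 and 1.47 ± 0.31. elav had 6.93, 7.18 and 7.37 in Notch embryos, against 8.44, 9.34 and 8.12 in controls. Nrt, an adhesion protein gene, had 9.49, 9.34 and 9.33 in Notch embryos, against 11.33, 11.24 and 11.25 in controls (-1.89 ± 0.10), and its other probe set gave -0.56. ftz fell by 0.75 ± 0.19, a call lost without control replicate 1 (-0.63, adjusted p = 0.0583). comm, which controls axon crossing of the midline, rose by 0.49 ± 0.11. elav and Nrt remained well detected in Notch embryos, unlike nerfin-1 and tap.

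Of 13 sense organ genes on the array 7 passed the filter, and all 7 fell, with a median change of -1.19. A gene can pass this filter through control arrays alone. Without the filter on dim probe sets, 6 of 13 fell and none rose. Beside pros, ato and neur these were sens (-1.57 ± 0.18), a zinc finger gene of sense organ precursors, ham (-1.19 ± 0.14), cpo (-1.19 ± 0.20) and phyl (-0.99 ± 0.18). sens had 4.04, 4.52 and 3.96 in Notch embryos, against 5.62, 5.69 and 5.92 in controls. The 3 probe sets of cpo gave -1.39, -1.19 and -0.76. With the calls of ato and neur lost, 5 of 7 passed without control replicate 2.

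Glial genes went both ways: wrapper rose and 4 of 9 fell, with a median of -0.26. repo, the homeobox gene of lateral glia, had 4.71, 4.89 and 4.94 in Notch embryos, against 5.90, 5.83 and 6.09 in controls (-1.09 ± 0.19). gcm, which starts the glial and hemocyte programmes, fell by 0.72 ± 0.13, htl, an FGF receptor gene, by 1.04 ± 0.23 and moody by 0.68 ± 0.15. wrapper is a midline glial gene, and among 7 midline genes 3 rose and none fell, with a median of 0.49. oc, a homeobox gene of the head and midline, had 7.74, 7.49 and 8.09 in Notch embryos, against 6.02, 6.03 and 6.32 in controls (1.64 ± 0.16). spi, an EGF receptor ligand gene, rose by 0.38 ± 0.11, but its call was lost in 7 of 16 alternative settings, among them without each of the 3 Notch replicates (0.36 to 0.40) and without control replicate 1 (0.29, adjusted p = 0.14) or 2 (0.36). sli, the secreted midline repellent gene, had 7.27, 5.85 and 6.46 in Notch embryos, against 6.32, 5.97 and 5.36 in controls (0.64 ± 0.39, adjusted p = 0.335). Of 4 genes that mark columns of the neuroectoderm, SoxN rose and Dr fell by 0.67 ± 0.18, a call lost without Notch replicate 1 (-0.57) or control replicate 2 (-0.56).

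**Figure D3:**
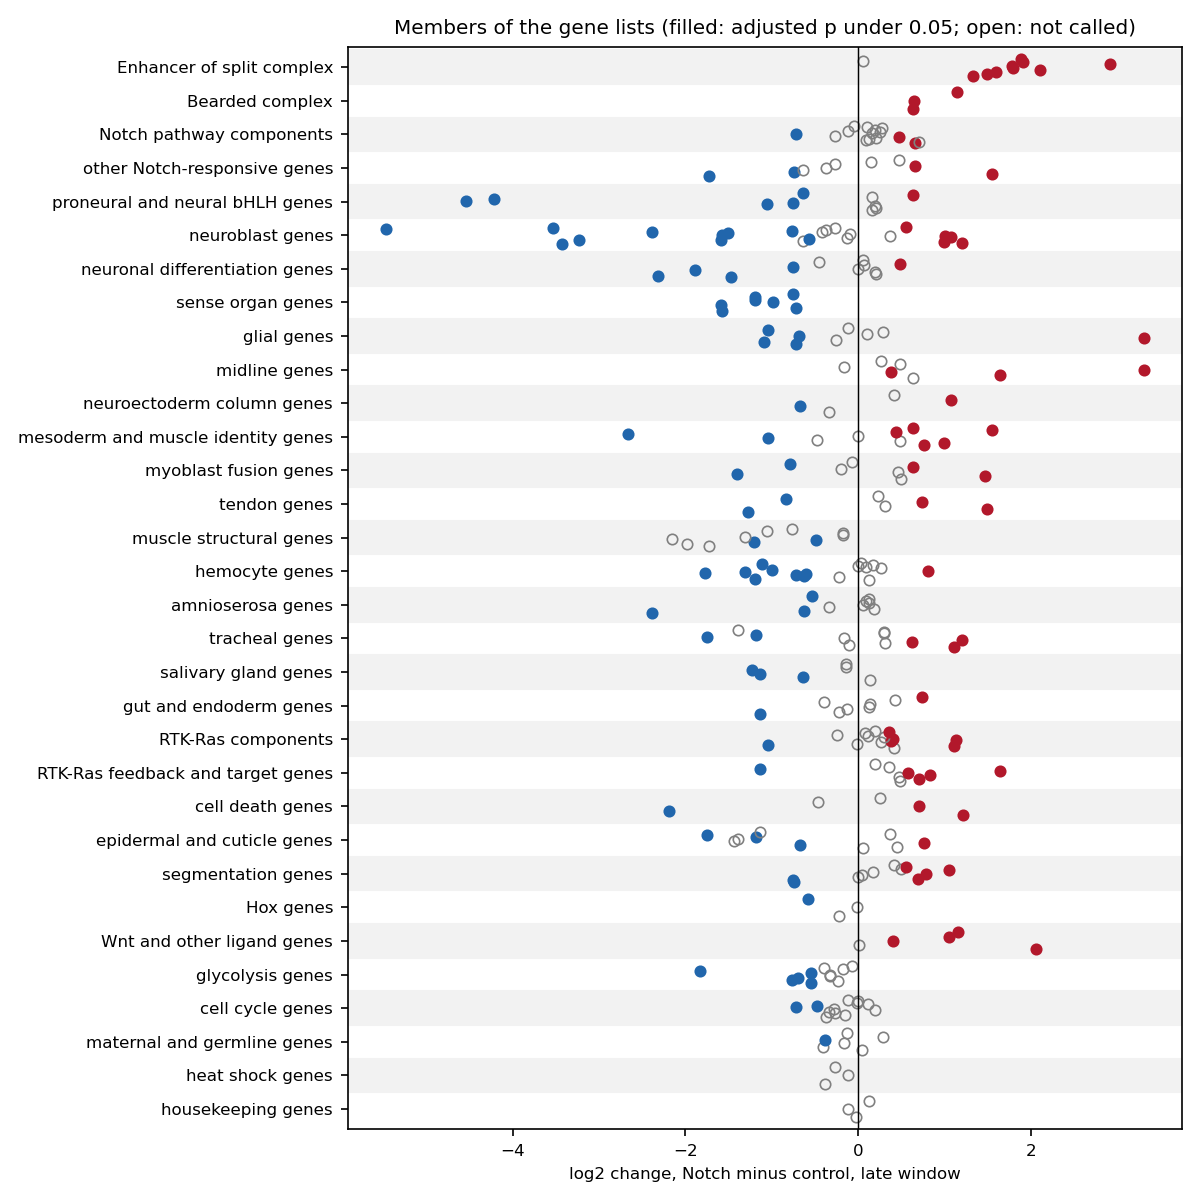
Log2 change, Notch minus control in the late window (horizontal axis), of each measured member of 32 gene lists (rows); filled red points are called rises, filled blue points called falls and open points are not called. Points of the Enhancer of split list lie right of 1 except E(spl)m6-BFM, and all sense organ points are filled and left of 0.

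Of 10 mesoderm and muscle identity genes that passed the filter 5 rose and 2 fell, with a median of 0.46. Without the filter on dim probe sets, 5 of 19 rose and 5 fell. Beside Him and sna, twi, the bHLH gene that specifies mesoderm, had 5.22, 5.24 and 5.11 in Notch embryos, against 4.60, 4.37 and 4.30 in controls (0.76 ± 0.13), levels near the filter level of 5. lmd, needed in fusion-competent myoblasts, had 9.57, 9.53 and 9.64 in Notch embryos, against 8.92, 8.90 and 9.03 in controls (0.63 ± 0.11). Six4 rose by 0.44 ± 0.14, a call lost without any 1 Notch replicate (0.43 to 0.45) and without control replicate 1 (0.34). kn, a transcription factor gene of a subset of muscles, neurons and hemocyte precursors, had 3.53, 3.44 and 3.42 in Notch embryos, against 5.78, 6.20 and 6.39 in controls (-2.66 ± 0.25). The groups did not overlap in any of these 4 genes or in htl, which fell as given above.

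Among 8 myoblast fusion genes 2 rose and 2 fell (4 and 2 with the replicate block). hbs, an immunoglobulin adhesion gene of fusion-competent myoblasts, had 7.49, 6.34 and 7.44 in Notch embryos, against 5.47, 5.51 and 5.87 in controls (1.47 ± 0.26). rols, the adaptor gene of founder cells, had 4.30, 4.31 and 4.53 in Notch embryos, against 5.76, 5.76 and 5.81 in controls (-1.40 ± 0.17). The adhesion gene of the cells that fuse was higher and the adaptor gene of the founders lower in every Notch array. sing fell by 0.79 ± 0.24 with overlapping groups, and its call was lost without control replicate 1 (-0.71) or 3 (-0.61) and without Notch replicate 2 or 3 (-0.73 each), with adjusted p-values from 0.105 to 0.154. Of 6 tendon genes 2 rose, Lrt (1.49 ± 0.22) and drm (0.74 ± 0.13), and 2 fell, kon (-0.83 ± 0.18) and sr (-1.27 ± 0.34). sr, the transcription factor gene of tendon cells, had 3.26, 3.46 and 3.49 in Notch embryos, against 5.38, 5.36 and 3.29 in controls. Control replicate 3 lay inside the Notch range for sr. Without it the change of sr was -1.97 (adjusted p = 6.92e-08), and the call was lost without control replicate 1 (-0.92) or 2 (-0.93) and without Notch replicate 1 (-1.20).

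Muscle structural genes were divided by the same array. Of 10 measured genes only Prm (-1.20 ± 0.35, adjusted p = 0.0241) and Act87E (-0.49 ± 0.13) fell, none rose, and the median change was -1.13. Mlc2, a myosin light chain gene, had 7.08, 6.70 and 6.07 in Notch embryos, against 9.97, 9.83 and 5.99 in controls (-1.98 ± 0.82, adjusted p = 0.126). up, the troponin T gene, had 3.66, 3.35 and 3.12 in Notch embryos, against 7.14, 6.52 and 2.92 in controls (-2.15 ± 0.74, adjusted p = 0.0602). Prm, the paramyosin gene, had 4.58, 4.55 and 4.54 in Notch embryos, against 6.52, 6.34 and 4.42 in controls. The call of Prm was lost in 8 of 16 alternative settings, among them without any 1 Notch replicate (-1.19 to -1.21, adjusted p = 0.0561 to 0.0651) and without control replicate 1 (-0.82, adjusted p = 0.152) or 2 (-0.91, adjusted p = 0.148). Control replicates 1 and 2 were high in these genes, while control replicate 3 was at or below the Notch arrays. Leaving out control replicate 3 gave 8 falls of 10, with up at -3.46 (adjusted p = 0.000111) and Mlc2 at -3.28 (adjusted p = 0.00171), and the replicate block gave 7. Leaving out control replicate 2, Notch replicate 2 or Notch replicate 3 gave 0 by the same limma test, quantile normalisation gave 5, and leaving out control replicate 1 or Notch replicate 1 gave 1. Act87E, an actin gene at 11.49, 11.34 and 11.36 in Notch embryos, against 11.83, 12.01 and 11.83 in controls, did not show this split, and its call was lost in the 3 settings that gave 0.

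**Figure D4:**
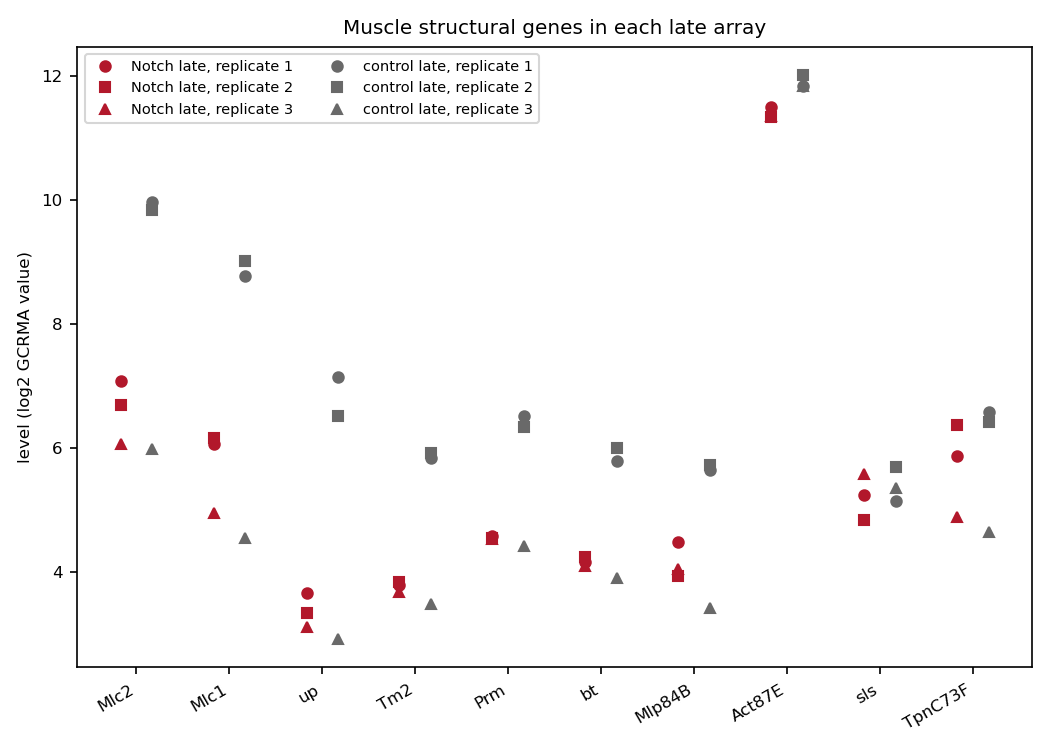
Level (deposited log2 GCRMA value, vertical axis) of the 10 measured muscle structural genes in each late array; red points are Notch arrays, left in each pair, grey points control arrays, and the shape gives the replicate number. Control replicate 3 (grey triangles) lies at the level of the Notch arrays in most of these genes, as in Mlc2 with 5.99 against 9.97 and 9.83 in the other controls.

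Of 16 hemocyte genes 8 fell and 1 rose, with a median of -0.41, and the counts of falls were 4 in a fit on only the 6 arrays and 5 without control replicate 2. The collagen IV genes vkg and Col4a1, made by hemocytes and fat body, are neighbours on 2L and fell by 1.77 ± 0.42 and 1.31 ± 0.36. vkg had 4.66, 4.76 and 4.53 in Notch embryos, against 7.04, 7.02 and 5.18 in controls, and Col4a1 had 5.91, 6.14 and 5.93 in Notch embryos, against 7.88, 7.91 and 6.13 in controls. Control replicate 3 was again the lowest control array, and for Col4a1 it lay inside the Notch range. Without it the changes of vkg and Col4a1 were -2.39 and -1.90, and the call of Col4a1 was lost without control replicate 1 (-1.03) or 2 (-1.01) or Notch replicate 3 (-1.28). PPO1, the prophenoloxidase gene of crystal cells, had 3.69, 4.05 and 4.28 in Notch embryos, against 4.91, 5.53 and 5.17 in controls (-1.19 ± 0.23). Sr-CI, a scavenger receptor gene, had 4.54, 4.33 and 4.14 in Notch embryos, against 5.31, 5.49 and 5.52 in controls (-1.11 ± 0.16). SPARC, a matrix protein gene, fell by 1.00 ± 0.19. In PPO1, Sr-CI and SPARC the groups did not overlap, and control replicate 3 lay within 1 log2 unit of the other controls. crq, the scavenger receptor gene by which macrophages take up dead cells, had 5.06, 5.22 and 5.10 in Notch embryos, against 4.44, 4.22 and 4.30 in controls (0.81 ± 0.13). These levels lie near the filter level of 5, and a filter at 6 left 13 hemocyte genes, with 6 falls and no rise. srp, the GATA factor gene of blood and fat body, was at 0.13 and did not pass the test.

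Of 9 amnioserosa genes 3 fell and none rose, with a median of 0.06. Kr, which is also a neuroblast gene, had 4.80, 4.05 and 4.99 in Notch embryos, against 7.06, 6.82 and 7.12 in controls. ush (-0.63 ± 0.19) and Ance (-0.53 ± 0.15) lost their calls without control replicate 3 (-0.52 and -0.42, adjusted p = 0.129 and 0.107) and without any 1 Notch replicate, and also without control replicate 2 in ush and 1 in Ance. In the trachea, 3 of 11 genes rose and 2 fell, with a median of 0.30. The rises were of transcription factor and receptor genes: esg, as above, btl, the FGF receptor gene of tracheal cells, with 7.51, 7.25 and 7.22 in Notch embryos, against 6.38, 6.05 and 6.20 in controls (1.11 ± 0.18), and kni (0.62 ± 0.14). The falls were of the neighbouring chitin deacetylase genes verm and serp. verm had 7.50, 7.28 and 7.00 in Notch embryos, against 9.18, 9.60 and 8.25 in controls (-1.75 ± 0.45), a call lost without control replicate 2 (-1.45). serp fell by 1.18 ± 0.39 (adjusted p = 0.0463), a call lost in 11 of 16 alternative settings and without every 1 array except control replicate 3, with changes of -0.74 to -1.33. The other 6, salm (-0.11), vvl (-0.16), rib (0.31), apt (0.30), pio (0.30) and Gasp (-1.39), did not pass the test. The calls thus do not speak for all genes of tracheal specification or of the tube wall.

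Salivary gland genes fell in 3 of 6 cases, none rose, and the median was -0.39. PH4alphaSG2, a prolyl hydroxylase gene of the secretory cells, had 4.28, 4.91 and 5.33 in Notch embryos, against 5.93, 6.05 and 6.24 in controls (-1.23 ± 0.22). hkb, which shapes the gland and the gut ends, had 3.86, 3.97 and 4.05 in Notch embryos, against 4.75, 5.26 and 5.25 in controls (-1.13 ± 0.13). Of 8 gut and endoderm genes hkb fell and drm rose, with a median of 0.00 (2 falls with the replicate block), where 13.7% of all rows were called. Epidermal and cuticle genes fell in 3 of 10 cases (verm, serp and sn, the fascin gene, -0.67 ± 0.17) and 1 rose (mwh, 0.76 ± 0.16), with a median of -0.90. The replicate block gave 5 falls and 2 rises, leaving out control replicate 3 gave 5 and 1, and leaving out control replicate 2 gave 0 and 2, with 2 rises also without control replicate 1 or Notch replicate 2. The setting without control replicate 2 took the call of sn too (-0.59, adjusted p = 0.0561). Gasp, a chitin-binding protein gene, had 5.32, 3.68 and 3.68 in Notch embryos, against 6.69, 7.01 and 3.14 in controls (-1.39 ± 0.73, adjusted p = 0.25, and 0.0444 with the replicate block). It showed the split of the muscle genes, with control replicate 3 the lowest of all 6 arrays.

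The series set Notch beside the RTK-Ras pathway, and genes of that pathway were measured here in Notch embryos without the Ras transgene. Of 14 components 5 rose and htl fell, with a median of 0.29. The FGF ligand genes ths and pyr, neighbours on 2R, rose by 1.13 ± 0.22 and 0.40 ± 0.10. ths had 7.28, 6.18 and 7.14 in Notch embryos, against 5.66, 5.67 and 5.90 in controls, and the call of pyr was lost in a fit on only the 6 arrays (adjusted p = 0.0756). Their receptor gene htl was lower and btl, the receptor gene of another FGF, higher. cnk, a scaffold gene, rose by 0.36 ± 0.12 (adjusted p = 0.0469), a call lost in 8 of 16 alternative settings, among them without Notch replicate 1 (0.26) or 3 (0.39) and without control replicate 1 (0.31) or 3 (0.33). A fit on only the 6 arrays called 2 rises among the components, and array median centring or leaving out Notch replicate 1, Notch replicate 3 or control replicate 1 called 3. Of 9 feedback and target genes 4 rose and hkb fell (6 and 1 with the replicate block), with a median of 0.49. aop, the repressor gene that RTK signalling inactivates, had 12.43, 12.29 and 12.28 in Notch embryos, against 11.60, 11.49 and 11.40 in controls (0.83 ± 0.10, adjusted p = 4.37e-06). sty, a feedback inhibitor gene, had 8.38, 8.14 and 8.38 in Notch embryos, against 7.82, 7.35 and 7.62 in controls (0.70 ± 0.14). Both aop and sty were higher in every Notch array. The 4 members of the list that did not pass the test were at 0.20 (Cbl) to 0.49 (aos). Mkp3, a phosphatase gene, rose by 0.58 ± 0.19, a call lost in 8 of 16 alternative settings and without any 1 array except control replicate 2 (0.48 to 0.63).

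Of 5 measured Wnt and other ligand genes 4 rose and none fell, with a median of 1.05 (2 rises without Notch replicate 3 or control replicate 1). Wnt6 had 5.00, 5.53 and 5.92 in Notch embryos, against 3.44, 3.41 and 3.41 in controls (2.06 ± 0.15, adjusted p = 2.81e-09), so it was at the floor in every control collection. hh, the Hedgehog gene, had 7.06, 6.91 and 7.06 in Notch embryos, against 5.81, 6.15 and 5.92 in controls (1.05 ± 0.25). upd1, a ligand gene of the JAK-STAT pathway, rose by 1.16 ± 0.30, a call lost without Notch replicate 3 (0.95) or control replicate 1 (1.01). gbb, a BMP ligand gene, rose by 0.40 ± 0.12, a call lost in 7 of 16 alternative settings, among them without Notch replicate 2 (0.33) or 3 (0.36) and without control replicate 1 (0.42) or 2 (0.28). Among 11 segmentation genes, odd (0.69 ± 0.09), en (0.79 ± 0.15), hh and gsb rose and both hry and ftz fell, with a median of 0.42 (6 rises with the replicate block). en had 8.71, 9.00 and 9.27 in Notch embryos, against 8.13, 8.32 and 8.15 in controls. Of 3 measured Hox genes Antp, the neighbour of ftz, fell by 0.58 ± 0.16, a call lost in 6 of 16 alternative settings, including without control replicate 1 (-0.47) or 2 (-0.51) and without Notch replicate 2 (-0.59) or 3 (-0.52).

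Among 5 cell death genes, skl, a relative of reaper, had 6.18, 5.68 and 6.77 in Notch embryos, against 4.56, 5.12 and 5.31 in controls (1.21 ± 0.24). egr, the tumour necrosis factor gene, had 4.35, 4.50 and 4.18 in Notch embryos, against 6.48, 6.35 and 6.76 in controls (-2.19 ± 0.15), and its receptor gene wgn rose by 0.70 ± 0.17, a call lost without Notch replicate 3 (0.57, adjusted p = 0.0511). The ligand gene was thus lower and the receptor gene higher in every Notch array. Of 11 glycolysis genes 5 fell and none rose, with a median of -0.39 (3 falls in a fit on only the 6 arrays and without Notch replicate 3 or control replicate 1, 2 without Notch replicate 1 or control replicate 2). The largest fall was of fbp, whose product works in the reverse direction, towards glucose, with 3.50, 4.09 and 4.16 in Notch embryos, against 5.92, 6.04 and 5.27 in controls (-1.83 ± 0.28). Gapdh1 had 5.26, 5.29 and 5.38 in Notch embryos, against 6.02, 6.27 and 5.71 in controls (-0.69 ± 0.15). The array's control probe sets for GAPDH, a check of RNA integrity, had a 3′ minus 5′ difference of 1.77, 1.50 and 1.55 in Notch arrays, against 3.03, 3.91 and 2.57 in control arrays. The actin differences averaged 0.62 ± 0.22 in Notch arrays and 0.64 ± 0.26 in control arrays (SD, n = 3 each). Those of eIF-4a averaged 1.86 ± 0.21 and 1.82 ± 0.21. The part of the GAPDH difference in the value of Gapdh1 was not tested. Ald1 (-0.76 ± 0.22), Eno (-0.54 ± 0.18) and Hex-A (-0.54 ± 0.16) lost their calls without control replicate 2 (-0.69, -0.40 and -0.44) and in other settings: without Notch replicate 1 in all 3 genes (-0.75, -0.53 and -0.51), without Notch replicate 2 in Eno and Hex-A (-0.56 and -0.50), without Notch replicate 3 and control replicate 1 in Ald1 (-0.70 and -0.69) and Eno (-0.51 and -0.52), and without control replicate 3 in Hex-A (-0.47).

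Of 12 cell cycle genes 2 fell, the replication licensing genes Mcm3 (-0.72 ± 0.15) and Mcm5 (-0.48 ± 0.16), and the median was -0.21. Over all rows 7.5% fell. The call of Mcm5 was lost in 11 of 16 alternative settings, including without any 1 array except control replicate 1, with changes of -0.40 to -0.54. Of 6 maternal and germline genes stau fell by 0.38 ± 0.12, and its other probe set gave -0.12 (adjusted p = 0.69). The call of stau was lost in 8 of 16 settings, including without Notch replicate 1 (-0.33) or 3 (-0.35) and without control replicate 1 (-0.40), 2 (-0.35) or 3 (-0.39). None of 3 heat shock genes and none of 3 housekeeping genes passed limma's test, although Hsc70-4 and Hsp27 were called lower with the replicate block. Hsp27 was at -0.38 (adjusted p = 0.211), and without Notch replicate 3 it was called at -0.58 (adjusted p = 0.0479). The housekeeping genes RpL32, betaTub56D and Tbp were at -0.02, -0.12 and 0.13. None of 6 yolk and egg shell genes on the array reached the filter level, with a highest value of 4.58 in the Notch arrays and 4.43 in the control arrays.

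The same transgene was measured on arrays that share none with this comparison. The calls are not independent of it, however, because every comparison came from the same fit, with a spread pooled over all groups. A row with a small pooled spread is more easily called in each comparison. The counts of late genes called again, set beside the shares of all rows, are therefore not independent support. In the early window 311 rows were called for Notch against control (5.42%). Of the 309 genes that rose late, 268 (86.7%) were also higher early, where 38.8% of all rows were higher, and 76 were called higher, against 1.94% of all rows. Of the 377 that fell late, 348 (92.3%) were lower early, where 61.2% of all rows were lower, and 125 were called lower, against 3.49% of all rows. The early changes of these genes were smaller, with medians of 0.18 and -0.34 early against 0.58 and -0.81 late, but the late medians were taken from the genes called late. In all, 234 rows were called in the same direction in both windows, 75.2% of the early and 29.7% of the late calls. Combined against Ras embryos in the late window gave 648 calls (11.3%, and 18.7% with the replicate block). Of the 309 genes that rose with Notch alone, 300 (97.1%) were higher in combined than in Ras embryos and 154 were called higher, where 53.8% of all rows were higher and 5.06% called higher. Of the 377 that fell, 367 (97.3%) were lower and 243 were called lower, where 46.2% of all rows were lower and 6.24% called lower. Among the leading genes, CG13403 changed by 4.52 ± 0.14, wrapper by 3.24 ± 0.19, nerfin-1 by -5.75 ± 0.26 and CG13159 by -5.48 ± 0.53 between combined and Ras embryos. Dgat2 was at 0.23 ± 0.20 (adjusted p = 0.588) and Jhbp1 at 0.97 ± 0.37 (adjusted p = 0.108) in the Ras background. The 1 gene called in opposite directions was bgm, a gene of fatty acid metabolism chosen after its values were seen, at -0.47 ± 0.16 with Notch alone and 0.70 ± 0.16 with Ras. Its call with Notch alone was lost in 8 of 16 alternative settings, including without control replicate 2 (-0.44) or 3 (-0.37) and Notch replicate 1 (-0.46) or 2 (-0.40).

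The difference between the late and the early Notch effect was then tested for each gene. It was called in 92 rows (1.6%), 31 with a more positive (0.54%) and 61 with a more negative late effect (1.06%), and in 222 rows with the replicate block (3.87%). Among the 61 more negative effects, 43 were called lower late and not called early, 12 were called lower in both windows, and 6 were called higher early. Array median centring gave 18.7% more positive among the called rows, against 33.7% as deposited.

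The largest of these differences were of genes that were low in early embryos and, of the 4 groups, highest in late controls. CG13159 averaged 5.93 ± 0.56 in late Notch embryos and 10.66 ± 0.58 in late controls, and 4.67 ± 0.16 in early Notch embryos and 5.46 ± 0.50 in early controls (SD, n = 3 each), a difference between windows of -3.95 ± 0.75 (adjusted p = 0.00603). CG13920 averaged 3.22 ± 0.03 in late Notch embryos and 7.83 ± 0.33 in late controls, and 3.06 ± 0.14 in early Notch embryos and 3.85 ± 0.19 in early controls (-3.82 ± 0.35, adjusted p = 8.69e-07). JhI-26, a juvenile hormone-inducible gene, averaged 4.42 ± 0.29 in late Notch embryos and 7.35 ± 0.50 in late controls, and 4.03 ± 0.20 in early Notch embryos and 4.39 ± 0.19 in early controls (-2.57 ± 0.32). In CG13920 and JhI-26 the late Notch level was within 1 log2 unit of both early levels. CG14756 (-3.50 ± 0.67) and CG14110 (-3.16 ± 0.76, adjusted p = 0.0354) followed. The difference of CG14110 lost its call in 6 settings, among them without control replicate 1 (-2.60) or 2 (-2.95) and without Notch replicate 2 (-3.21) or 3 (-2.96). fne (-1.67 ± 0.38) and Kr (-1.46 ± 0.28) were members of the neural lists with more negative late effects. Kr averaged 4.61 ± 0.50 in late Notch embryos and 7.00 ± 0.16 in late controls, and 6.90 ± 0.20 in early Notch embryos and 7.83 ± 0.08 in early controls, so it was lower in both windows and more so late.

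dpn, a bHLH repressor gene of neuroblasts and a Notch target, rose early and did not pass the late test without the replicate block. It averaged 6.02 ± 0.54 in late Notch embryos and 6.66 ± 0.22 in late controls (-0.64 ± 0.27, adjusted p = 0.131, and 0.0252 with the replicate block). It averaged 8.21 ± 0.40 in early Notch embryos and 6.66 ± 0.18 in early controls (1.55 ± 0.27), and the difference between windows was -2.19 ± 0.38 (adjusted p = 0.00322). The early Notch embryos had the highest level of dpn among the 4 groups.

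Among more positive late effects, CG14567 averaged 8.17 ± 0.10 in late Notch embryos and 4.40 ± 0.07 in late controls, and 5.97 ± 0.27 in early Notch embryos and 4.43 ± 0.14 in early controls (2.23 ± 0.22, adjusted p = 2.04e-06). Wnt6 (2.03 ± 0.22) and dmGlut, a glutamate transporter gene (1.44 ± 0.18), were called higher in Notch embryos late and not early. dmGlut averaged 5.06 ± 0.28 in late Notch embryos and 3.50 ± 0.05 in late controls, and 3.72 ± 0.09 in early Notch embryos and 3.60 ± 0.03 in early controls. Other positive differences came from genes that were low in Notch embryos early. The proneural gene ac averaged 3.92 ± 0.06 in late Notch embryos and 3.76 ± 0.08 in late controls, and 3.96 ± 0.19 in early Notch embryos and 5.10 ± 0.23 in early controls (1.30 ± 0.19, adjusted p = 0.000447). Uhg1, a small nucleolar RNA host gene, averaged 4.04 ± 0.08 in late Notch embryos and 4.39 ± 0.26 in late controls, and 3.96 ± 0.11 in early Notch embryos and 6.36 ± 0.69 in early controls (2.05 ± 0.29). In both genes the late levels lay near the floor in both groups, where differences are compressed. Among the Enhancer of split genes, E(spl)m7-HLH had a larger late effect, 1.79 ± 0.19 late and 0.50 ± 0.19 early (difference 1.28 ± 0.27, adjusted p = 0.0143).

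**Figure D5:**
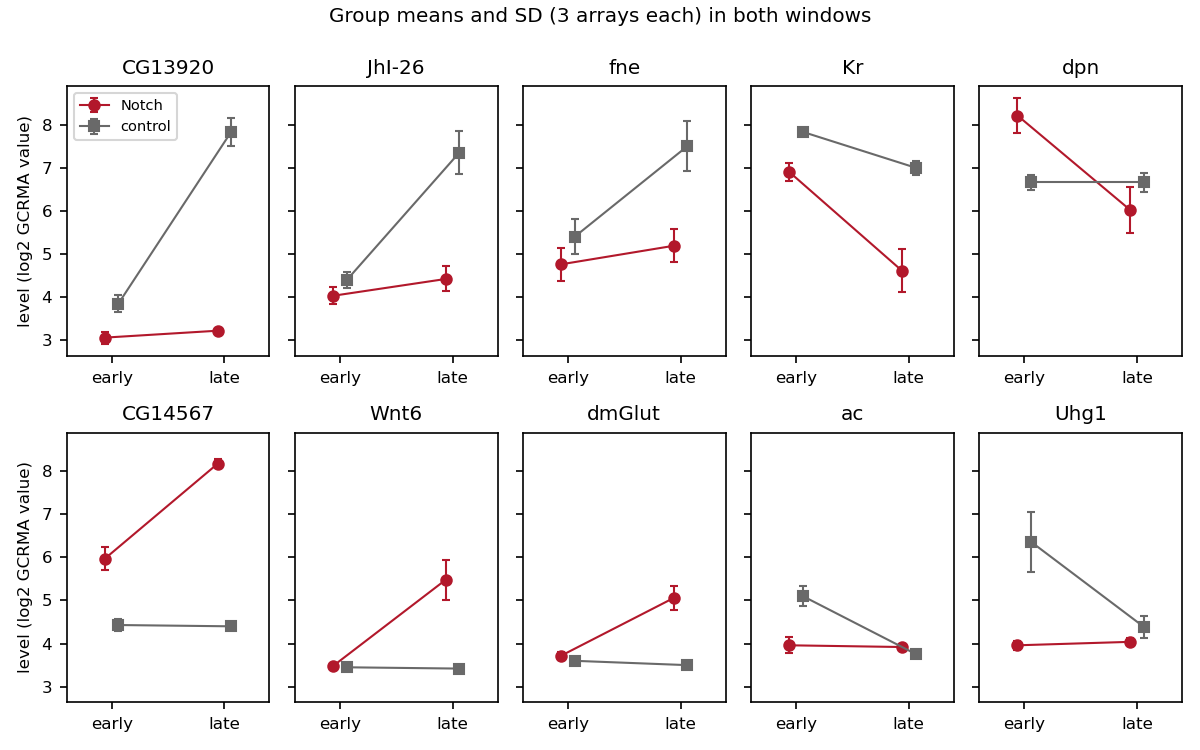
Mean level ± SD (deposited log2 GCRMA value, vertical axis; 3 arrays each) of 10 genes with a called difference between the late and the early Notch effect, in the early and the late window; red circles are Notch embryos and grey squares control embryos. The upper row has more negative and the lower row more positive late effects, as in CG13920 (late 3.22 in Notch embryos, 7.83 in controls) and CG14567 (late 8.17 in Notch embryos, 4.40 in controls).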

How the data were processed

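Total RNA of whole embryos was measured on 24 Affymetrix DrosGenome1 arrays, 3 for each of 4 crosses in 2 windows. The authors' deposited values are log2 expression, for which the submitters' processing notes name GCRMA and limma, with no version given. GCRMA as commonly run brings arrays to a common distribution, and a shift shared by most genes would then not be seen. Of 14010 probe sets 44 array controls were left out; 12443 had 1 symbol, 327 several and 1196 none, and 41 symbols without a match in the RefSeq table were kept as annotated. Probe sets at 5 or more in at least 3 arrays were kept, with 1 per gene (highest mean), which left 5736 rows (5020 with 1 symbol, 138 with several and 578 with none). From 5572 to 5656 probe sets per late Notch or control array reached 5, and 3 arrays per group limit the precision.

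One mean per group was estimated over all 24 arrays by limma 3.58.1 under R 4.3.3 (16 residual and 4.09 prior degrees of freedom), with Benjamini-Hochberg adjustment within each comparison and a threshold of 0.05. A standard error pools the spread of all 8 groups. The fit was tested on simulated data. Deviations of same-numbered Notch and control arrays correlated at 0.58, 0.17 and 0.45 across genes, and the labels describe collections made in parallel sets, so the replicate number was taken as a pairing and used as a block in an alternative fit. The p-values given without the block rest on the spread between collections pooled over all 8 groups, with 3 per group, and leave out this pairing.

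Members, the 33 gene lists and rules were chosen with earlier results of these data known. Named were the 12 largest rises and 12 largest falls without overlap, up to 5 called members per list (or the 2 highest where none was called), members of counts of 5 or fewer, the 5 largest window differences each way, and all Enhancer of split and Bearded genes. CG3349, bgm, sc, l(1)sc, sli, Mlc2, up, Gasp, srp, dpn and the window differences of fne, Kr and E(spl)m7-HLH were chosen after their values were seen. So were aos, Cbl, salm, vvl, rib, apt and pio. Alternatives were other scalings, filters, probe set rules and priors, fits on fewer arrays, the block, and leaving out each array. No promoter or protein sequences were used here.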

Additional observations from a re-analysis of the deposited data

Results flagged for a closer look

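For 27 genes named here or on the gene lists, the late and the early Notch effect differed by limma's test of the difference itself (adjusted p under 0.05, 12 arrays). More negative late effects were found for CG13159 (-3.95), CG13920 (-3.82), CG14756 (-3.50), CG14110 (-3.16), JhI-26 (-2.57), dpn (-2.19), fne (-1.67), Kr (-1.46), egr (-1.31), CG8353 (-1.30), rols (-1.01), Nrt (-1.0), CycE (-0.97) and ham (-0.96). Of these, CG13159, CG13920, CG14756, CG14110, JhI-26, fne, rols and ham were called lower late and not early. CycE, the gene of the G1 cyclin, was at -0.37 late and 0.60 early.

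More positive late effects were found for CG14567 (2.23), Uhg1 (2.05), Wnt6 (2.03), dmGlut (1.44), ac (1.30), E(spl)m7-HLH (1.28), sna (1.28), sc (1.16), CG15480 (1.10), Doc3 (0.94), odd (0.87), pyr (0.73) and pio (0.68). The mesoderm gene sna averaged 10.40 in late Notch embryos and 9.41 in late controls, and its early change was -0.29. In sc, Doc3 and ac the late change missed the threshold (0.21, 0.13 and 0.16), and the early changes were -0.95, -0.81 and -1.14. No cause of these differences was tested.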

How the results depend on the processing

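Of 130 named genes, 123 were called, and 33 of these lost the call in at least 1 of 16 alternative settings. The other 90 kept the call and the direction in every setting that tested them. The filter at 6 or more removed some genes, and only 115 of the 140 results checked could be compared there. All changes rest on 3 arrays per group. Fits on only the arrays compared called 207 higher and 313 lower rows late, and 351 rows for combined against Ras. With the replicate block the counts were 591 higher, 640 lower, 222 for the difference between windows and 1072 for combined against Ras. The block ended no call of the 123 genes. Among the calls it added were those of Hsp27, Hsc70-4, dpn, up, Mlc2 and Gasp, and other list members gained calls as well. Hsp27 was also called without Notch replicate 3 (-0.58). Leaving out 1 array gave 232 (without Notch replicate 3) to 352 higher rows (without control replicate 3), 338 to 392 lower rows and 65 to 113 differences between windows. Quantile normalisation moved the share of higher rows among those called to 51.6%. The planned search of promoter letters was not run, since no promoter sequence was used here. E(spl)m6-BFM, near 0, ranged from -0.04 (without control replicate 1) to 0.19 (without control replicate 3), with -0.02 without Notch replicate 3. RpL32 ranged from -0.08 to 0.04 (without Notch replicate 1) and was at 0.01 with centring over the rows tested, an alternative chosen after seeing the data, and betaTub56D ranged from -0.23 to 0.02 (without Notch replicate 1). The causes were not tested.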
